A study of Rattus norvegicus with 7 samples.

Results

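The genes described here are 10 that handle drugs and other foreign chemicals in the lung, Cyp2s1, Cyp4b1, Cyp2e1, Fmo1, Fmo2, Ephx1, Aldh1a1, Por, Gstp1 and Abcg2. They were chosen by name, with earlier results of these data known. Every probe set of the array with one of these names as its only gene symbol was taken, which gave 13 of 31042 probe sets and 10 of 14217 named genes. Fmo2 had 3 probe sets, Por had 2 and the other genes had 1 each. The RNA came from right lungs, flushed with saline, of Dahl Salt Sensitive rats of 250 to 350 g. On a high-salt diet this inbred strain becomes hypertensive. All 7 rats breathed about 9.5% oxygen and received SU-5416, an inhibitor of VEGF receptors, and lungs were harvested at 3.5 weeks. This pair of exposures is used in rats to model severe pulmonary hypertension. In HSU (3 arrays) the rats had no further agent, and in HSU_Sor (4 arrays) they also received Sorafenib, an inhibitor of RAF and of several receptor tyrosine kinases. Doses, routes and sex are not stated in the labels. Normoxic rats, and rats under hypoxia without SU-5416, are listed in the design text and were not used here. SU-5416 and hypoxia were thus common to both groups, and each difference below is HSU_Sor minus HSU.

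Foreign chemicals are cleared in steps. Cytochrome P450 enzymes in the endoplasmic reticulum insert oxygen with electrons passed on by the reductase Por, and flavin monooxygenases (Fmo) oxidise nitrogen and sulfur atoms. Hydrolases and aldehyde dehydrogenases then act on the products, transferases attach glutathione, sulfate or glucuronide, and pumps export the conjugates. In the lung this machinery is known mainly from club cells, alveolar type II cells and endothelium, and it can activate some toxins as well as remove them.

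Each array gave a log2 expression value per probe set, so a difference of 1 is a doubling. Values are given in the order 1b, 2b, 3b for HSU and 1, 2, 3, 4 for HSU_Sor. The median of an array was 3.59 to 3.68, and any pair of arrays correlated at 0.984 to 0.992. Every HSU title carries the letter b after its replicate number and no HSU_Sor title does, so whatever the letter marks cannot be told apart from the treatment. Some arrays stood apart in genes outside this set. Myoglobin (Mb), a heart and muscle gene, reached 6.88 (HSU 1b) and 5.59 (HSU 2b) and lay between 2.57 and 2.64 on the other 5 arrays. Hemoglobin beta (Hbb) was at 12.11 and 11.59 on HSU_Sor 3 and 4 and between 14.23 and 14.75 elsewhere. Albumin (Alb) was at 12.38 on HSU_Sor 1 and between 6.76 and 8.14 elsewhere. The lung label was borne out by alveolar markers, whose mean over 8 type II genes was 14.19 to 14.38 in HSU and 14.20 to 14.29 in HSU_Sor. Of 6 fibroblast markers, 4 had a lower mean in HSU_Sor at an unadjusted p below 0.05 in limma and 0 a higher one. Of all probe sets tested, 3.67% and 2.33% did. No fibroblast marker passed the adjusted threshold, with a lowest adjusted p of 0.232. The mean over the list was 12.15 to 12.30 in HSU and 11.73 to 11.87 in HSU_Sor. The part of these markers in the results below was not tested.

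The comparison asked whether transcripts of these genes differed when Sorafenib was added. No gene passed the test across all probe sets. Of the 10 genes, 9 lay above the filter on mean expression and Abcg2 lay below it. With limma, 0 of the 9 had an adjusted p below 0.05, as had 0 of all 15521 probe sets tested (0%). The P450 genes Cyp2e1, Cyp2s1 and Cyp4b1 had an unadjusted p below 0.05, all 3 with a higher mean in HSU_Sor, where 6.00% of all probe sets tested reached this level, 2.33% with a higher and 3.67% with a lower mean. Cyp2e1 and Cyp2s1 also had a fold of at least 1.4 with an unadjusted p below 0.01, a combination seen in 0.844% of probe sets. Both had groups that did not overlap with HSU_Sor higher, as had 2.01% of probe sets, while 3.25% had non-overlapping groups with HSU_Sor lower (5.26% in both directions together). The remaining 6 genes tested had unadjusted p between 0.59 and 0.87. The median log2 difference of the 9 genes was 0.10, against -0.01 over all probe sets tested, and it was -0.02 without HSU 2b. Since the genes were chosen with earlier results of these data known, these counts do not test for an excess over the shares.

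**Figure D1:**
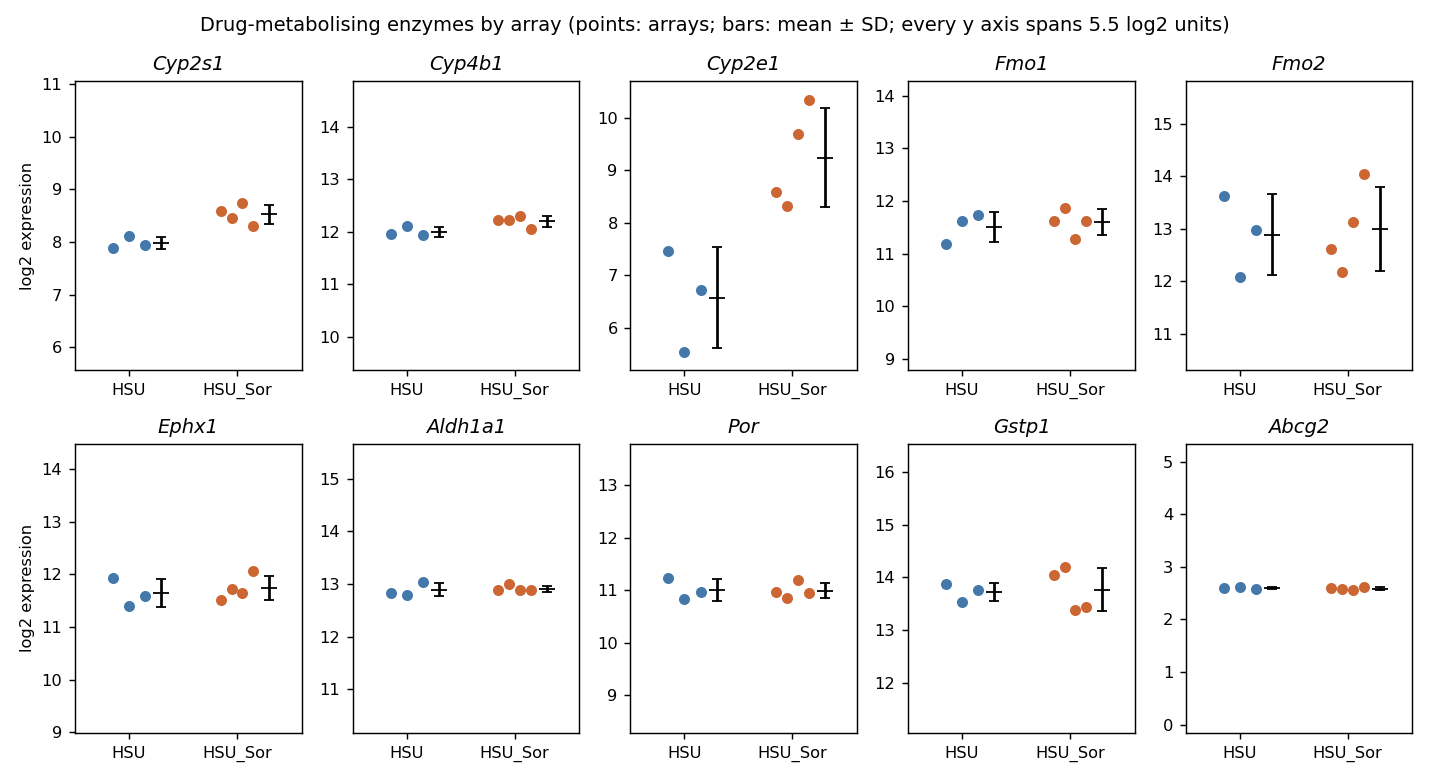
Log2 expression of each of the 10 genes (1 panel each, the probe set with the highest mean) in the 3 HSU arrays (blue) and the 4 HSU_Sor arrays (orange), with the mean and SD of each group in black and equal spans on all vertical axes. Cyp2e1 and Cyp2s1 have groups that do not overlap, Fmo2 spreads widely within both groups, and Abcg2 sits near 2.6 on every array.

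Among the P450 enzymes, Cyp2e1 stood out. It oxidises ethanol, acetone and small organic solvents and is best known from liver. Its log2 expression was 7.46, 5.55 and 6.71 in HSU and 8.59, 8.33, 9.69 and 10.34 in HSU_Sor. Every HSU_Sor array thus lay above every HSU array. The group means were 6.57 ± 0.96 (SD, n = 3) and 9.24 ± 0.94 (SD, n = 4), a difference of 2.66 ± 0.64 (SE, 95% interval 1.12 to 4.20), or 6.32-fold. In limma the unadjusted p was 0.0051 and the adjusted p 0.597. Among the 15521 probe sets tested this was the 2nd largest difference towards HSU_Sor, behind Aox1 alone, and 14 probe sets differed by more in the opposite direction. Leaving out single arrays gave differences from 2.15 (without HSU 2b) to 3.10 (without HSU 1b), and leaving out HSU_Sor 3 and 4 together gave 1.88.

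Since Cyp2e1 is abundant in liver, liver markers were set beside it. Of 8 such genes, 6 lay below the filter, and 5 of these, Apoa1, Fgb, Apoh, Cyp2c11 and Tat, were between 1.79 and 2.80 on all 7 arrays. Besides albumin, Serpina1 passed the filter, with 8.84, 8.73 and 9.64 in HSU and 9.31, 8.95, 9.96 and 9.95 in HSU_Sor, highest on arrays 3 and 4 as was Cyp2e1. The mean over the 8 was 3.71 to 3.74 in HSU and 3.72 to 4.45 in HSU_Sor. Albumin was high on HSU_Sor 1, where Cyp2e1 was at 8.59 and Ttr at 3.22, while the highest Cyp2e1 values were on HSU_Sor 3 and 4, with albumin at 7.61 and 8.14. A dimmer probe set of albumin was at 10.43 on HSU_Sor 1 and between 2.85 and 3.18 elsewhere. The Cyp2e1 difference without HSU_Sor 1 was 2.88. The part of liver RNA in the Cyp2e1 values was not tested.

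Cyp2s1, a P450 of airway and other epithelia that is known to be induced through the aryl hydrocarbon receptor, showed a smaller and tighter difference. Its log2 expression was 7.89, 8.12 and 7.94 in HSU and 8.59, 8.45, 8.74 and 8.31 in HSU_Sor. The groups did not overlap, with a gap between 8.12 on HSU 2b and 8.31 on HSU_Sor 4. The means were 7.98 ± 0.12 (SD, n = 3) and 8.52 ± 0.18 (SD, n = 4), a difference of 0.54 ± 0.12 (SE, 95% interval 0.26 to 0.82), or 1.45-fold. The unadjusted p was 0.0028 and the adjusted p 0.57. Without single arrays the difference ranged from 0.47 to 0.61.

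Cyp4b1, a P450 of lung epithelium that turns furan toxins such as ipomeanol into reactive products, was at 11.96, 12.11 and 11.94 in HSU and at 12.22, 12.23, 12.29 and 12.06 in HSU_Sor. The groups overlapped, since HSU 2b lay above HSU_Sor 4. The difference was 0.20 ± 0.08 (SE, 95% interval 0.02 to 0.38), or 1.15-fold, with an unadjusted p of 0.036 and an adjusted p of 0.812. Leaving out 1 array at a time put that unadjusted p above 0.05 in 5 of 7 cases, with 0.106 without HSU 1b, 0.111 without HSU 3b and 0.074, 0.076 and 0.077 without HSU_Sor 1, 2 and 3.

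Por, the NADPH-dependent reductase on which all microsomal P450 enzymes rely, had overlapping groups. Its brighter probe set was at 11.24, 10.83 and 10.96 in HSU and at 10.96, 10.86, 11.19 and 10.95 in HSU_Sor. The HSU_Sor arrays lay within the HSU range, and the difference was -0.02 ± 0.12 (SE, 95% interval -0.31 to 0.27). The dimmer probe set was at 9.63, 9.07 and 9.03 in HSU and at 8.62, 9.03, 8.75 and 9.40 in HSU_Sor, a difference of -0.30 ± 0.23 (SE) that was -0.10 without HSU 1b. The 2 probe sets of Por did not order the arrays alike: HSU_Sor 3 was the 2nd highest of the 7 arrays in the brighter and the 2nd lowest in the dimmer.

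**Figure D2:**
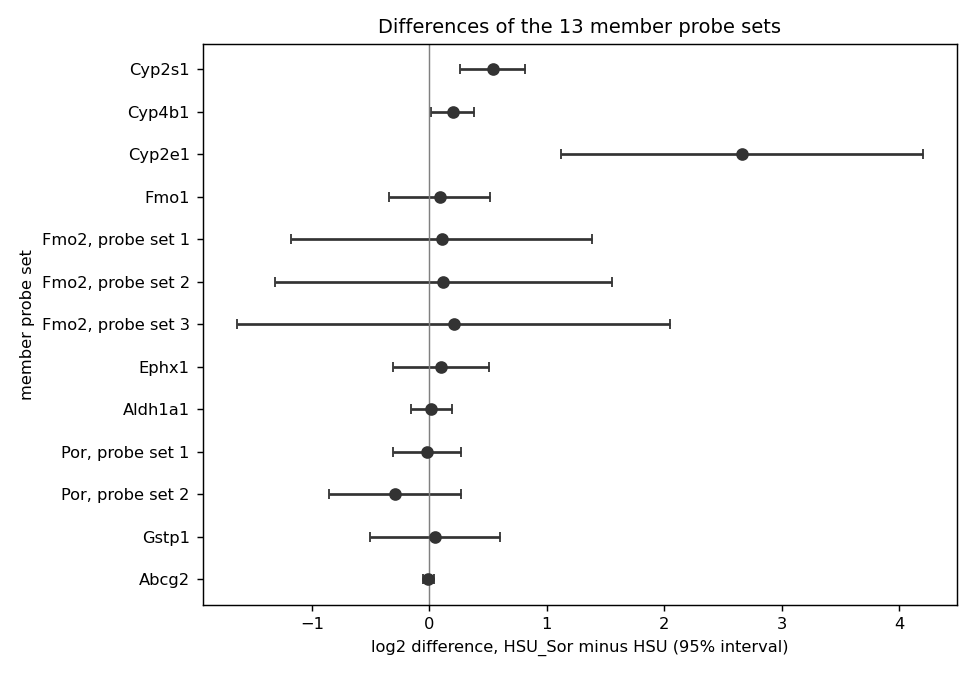
Log2 difference of HSU_Sor minus HSU for the 13 probe sets of the 10 genes (points) with its 95% interval from limma (bars). The intervals of Cyp2s1, Cyp4b1 and Cyp2e1 lie above 0, all others span 0, and those of Fmo2 are the widest beside that of Cyp2e1.

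The stretches of 250 bases before the annotated starts of the 3 P450 genes are given because these were the genes with the smallest p in the set, and a reader may wish to compare what their promoters hold. Sequences are from RefSeq (rat assembly GRCr8), whose promoter table held all 10 genes, with 2 starts for Ephx1. They run 5′ to 3′ on the strand of the gene. Capitals mark the antioxidant response core TGACNNNGC in Cyp2s1 and Cyp4b1 and the TATA box letters TATAAA in Cyp2e1.
Cyp2s1, GRCr8 chr1:90453074-90453323, minus strand: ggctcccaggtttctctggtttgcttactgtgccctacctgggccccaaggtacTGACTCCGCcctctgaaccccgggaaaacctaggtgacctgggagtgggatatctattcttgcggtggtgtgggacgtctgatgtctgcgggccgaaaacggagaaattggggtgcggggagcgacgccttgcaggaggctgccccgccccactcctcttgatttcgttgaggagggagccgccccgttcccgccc
Cyp4b1, GRCr8 chr5:134393117-134393366, minus strand: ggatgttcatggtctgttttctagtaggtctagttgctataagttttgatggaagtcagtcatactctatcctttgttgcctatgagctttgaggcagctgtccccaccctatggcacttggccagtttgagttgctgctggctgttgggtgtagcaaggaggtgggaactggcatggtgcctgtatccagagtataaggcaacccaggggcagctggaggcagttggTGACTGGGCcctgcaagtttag
Cyp2e1, GRCr8 chr1:205269717-205269966, plus strand: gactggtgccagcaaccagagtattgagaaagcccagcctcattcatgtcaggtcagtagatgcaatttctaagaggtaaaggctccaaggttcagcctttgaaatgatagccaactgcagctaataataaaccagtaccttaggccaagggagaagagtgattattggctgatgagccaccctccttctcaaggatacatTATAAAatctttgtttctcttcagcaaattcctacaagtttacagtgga

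Both strands were searched in all 33469 windows of this length in the table. The antioxidant response core, known as a binding motif of the stress factor NRF2, was found before 4 of the 10 genes (Cyp2s1, Cyp4b1, Ephx1 and Gstp1) and in 10.1% of all windows. The 10 genes had 11 windows, and in Ephx1 only 1 of the windows held the core. A gene was counted if any of its windows had a match, so counts of genes and shares of windows differ in unit. In Cyp2s1 it began 196 bases before the start and in Cyp4b1 22 bases before it. The aryl hydrocarbon receptor core GCGTG was found before Por and Gstp1 and in 25.9% of all windows. The TATA box letters, a motif added after the sequences were seen, were found before Cyp2e1 alone of the 10 genes, 49 bases before its start, and in 12.9% of all windows. No printed stretch held the aryl hydrocarbon receptor core. The G and C content was 62.4% for Cyp2s1, 51.2% for Cyp4b1 and 42.8% for Cyp2e1, and the median of all windows was 51.2%. Of the genes with the antioxidant response core, Ephx1 and Gstp1 had differences of 0.10 and 0.05. A match of letters is a description of the sequence and was not tested for binding.

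The flavin monooxygenases Fmo1 and Fmo2 lie next to each other in the RefSeq gene table, and Fmo2 is the form best known from lung. Fmo2 varied more between arrays of the same group than between the groups. Its brightest probe set was at 13.62, 12.08 and 12.97 in HSU and at 12.61, 12.18, 13.14 and 14.04 in HSU_Sor. The other 2 probe sets were at 12.41, 10.56 and 11.80, and at 11.64, 9.33 and 10.41, in HSU. In HSU_Sor they were at 11.24, 11.11, 11.53 and 12.95, and at 9.70, 10.20, 10.46 and 12.29. All 3 probe sets had their highest value on HSU_Sor 4, the next on HSU 1b and the lowest on HSU 2b. The range over the 7 arrays was 1.97, 2.39 and 2.96 log2 units, while the group differences were 0.10 ± 0.53, 0.12 ± 0.60 and 0.21 ± 0.77 (SE). The sign of these differences rested on single arrays, since they were -0.25, -0.30 and -0.34 without HSU_Sor 4 and -0.30, -0.40 and -0.36 without HSU 2b.

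Among macrophage markers, the receptor Mrc1 was singled out after its values were seen. It was at 12.73, 11.84 and 12.21 in HSU and at 11.78, 11.87, 12.53 and 12.90 in HSU_Sor. Its highest values were on the same 2 arrays as those of Fmo2. Cd68 of the same list was highest on HSU_Sor 4 (10.44) and HSU 1b (10.42) and lowest on HSU 2b (8.31), as was Fmo2. Csf1r was also lowest on HSU 2b (11.26), but highest on HSU_Sor 3 (11.75), with 11.53 on HSU 1b and 11.61 on HSU_Sor 4. The complement genes C1qa, C1qb and C1qc of the same list took another course: on HSU_Sor 4, where Fmo2 was highest, they were at 9.38, 7.31 and 9.42, below every HSU array. All 6 macrophage markers on the array were tested. The 3 complement genes had a lower mean in HSU_Sor at an unadjusted p below 0.05, as had 3.67% of all probe sets tested. Cd68, Csf1r and Mrc1 had higher means, by 0.39, 0.17 and 0.01, each at an unadjusted p above 0.05. The mean over the list was 10.52 to 11.49 in HSU and 9.78 to 10.61 in HSU_Sor. The part of these markers in the Fmo2 values was not tested. In whole lung, fewer cells of a type and less RNA per cell cannot be told apart.

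Fmo1 was at 11.19, 11.62 and 11.73 in HSU and at 11.62, 11.88, 11.29 and 11.62 in HSU_Sor. The groups overlapped almost fully, with a difference of 0.09 ± 0.18 (SE, 95% interval -0.34 to 0.52). Fmo1 was lowest on HSU 1b, where Fmo2 was near its highest.

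**Figure D3:**
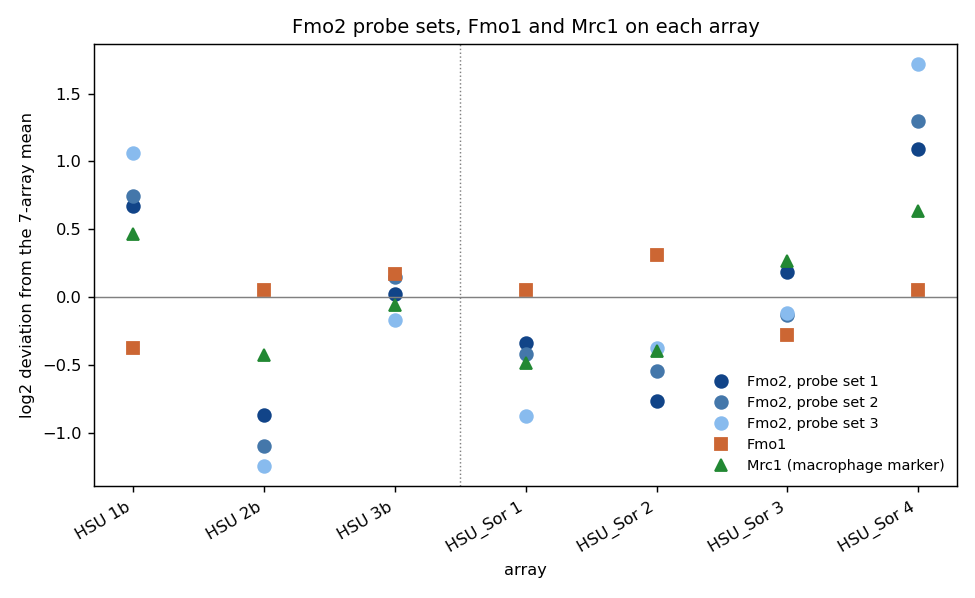
Deviation of each array from the 7-array mean, in log2 units, for the 3 probe sets of Fmo2 (blue circles, numbered from brightest to dimmest), for Fmo1 (orange squares) and for the macrophage marker Mrc1 (green triangles). The Fmo2 probe sets are highest on HSU_Sor 4 and HSU 1b and lowest on HSU 2b, so the spread lies within the groups, and Fmo1 does not share it.

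The enzymes that act on oxidation products showed small differences with overlapping groups. Ephx1, the microsomal hydrolase that opens epoxides, was at 11.93, 11.41 and 11.59 in HSU and at 11.52, 11.73, 11.64 and 12.06 in HSU_Sor. Its difference was 0.10 ± 0.17 (SE, 95% interval -0.31 to 0.51). Aldh1a1, the cytosolic dehydrogenase that makes retinoic acid from retinal, was at 12.84, 12.80 and 13.04 in HSU and at 12.88, 12.999, 12.88 and 12.88 in HSU_Sor. It had the narrowest range over the arrays among the 9 genes tested, 0.24 log2 units. The difference was 0.02 ± 0.07 (SE, 95% interval -0.16 to 0.19).

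Gstp1, the pi-class glutathione transferase that is prominent in lung epithelium, was at 13.87, 13.53 and 13.76 in HSU and at 14.04, 14.20, 13.38 and 13.44 in HSU_Sor. Within HSU_Sor the arrays fell on both sides of the HSU range, with 1 and 2 above it and 3 and 4 below it. The difference was 0.05 ± 0.23 (SE, 95% interval -0.51 to 0.60). HSU_Sor 3 and 4 were also the arrays with the low hemoglobin beta, and its part in the Gstp1 values was not tested. Leaving out both of them, a pair chosen after the data were seen, takes away the arrays below the HSU range. The Gstp1 difference was then 0.40, which is no evidence of a rise. Without single arrays it ran from -0.099 to 0.17.

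Abcg2, the membrane pump that exports drugs and conjugates, was between 2.56 and 2.62 on all 7 arrays. This is below the filter at 3.64 and near the lower quartile of the arrays, 2.37 to 2.42. Its difference of -0.01 ± 0.02 (SE), from the fit over all probe sets, is that of a probe set at the floor and gives no bound on a change of the transcript.

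The other genes of drug handling were read from lists of 100 names, of which 90 were on the array and 57 passed the filter. None passed the adjusted threshold. At an unadjusted p below 0.05, 7 of the 57 had a higher mean in HSU_Sor and 0 a lower one, against 2.33% and 3.67% of all probe sets tested. Without HSU 2b the count, in either direction, was 4. The median difference of the 57 genes was 0.06, against -0.01 over all probe sets. These lists too were chosen with earlier results of the data known, so the counts do not test for an excess over the shares.

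Aox1, aldehyde oxidase, a molybdenum enzyme of the cytosol that oxidises aldehydes and nitrogen heterocycles, had the largest difference of all 15521 probe sets towards HSU_Sor. It was at 6.14, 4.00 and 7.06 in HSU and at 8.28, 8.36, 8.34 and 8.61 in HSU_Sor. The HSU_Sor arrays lay close together above all HSU arrays, and HSU 2b was the lowest array in Aox1, as in Cyp2e1. The difference was 2.66 ± 0.67 (SE), or 6.33-fold, with an unadjusted p of 0.0065 and an adjusted p of 0.635. Without HSU 2b it was 1.80, and without HSU 1b and 2b together 1.33. Within HSU_Sor both genes were highest on array 4, while the lowest array was 2 in Cyp2e1 and 1 in Aox1.

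**Figure D4:**
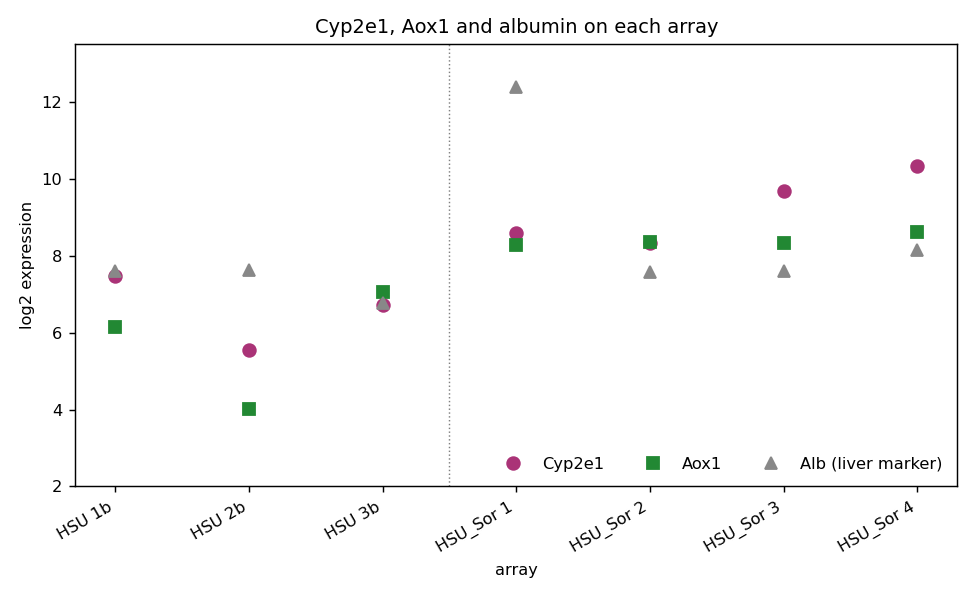
Log2 expression of Cyp2e1 (circles), Aox1 (squares) and the liver marker albumin (Alb, triangles) on each of the 7 arrays, with the dotted line between HSU and HSU_Sor. Cyp2e1 and Aox1 are lowest on HSU 2b and higher on every HSU_Sor array than on any HSU array, while albumin is high on HSU_Sor 1 alone.

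Of the other hydrolases and of the aldehyde and ketone enzymes, 17 were tested. Of these, 4 had a higher mean in HSU_Sor at an unadjusted p below 0.05, as had 2.33% of all probe sets tested. Mitochondrial Aldh2, which clears acetaldehyde, differed by 0.19 ± 0.06 (SE), with 12.34 to 12.48 in HSU and 12.52 to 12.65 in HSU_Sor. The quinone reductase Nqo2 had 8.72 and 8.24 on arrays 1b and 2b of HSU. The third HSU array had 10.08, within the HSU_Sor range of 9.96 to 10.32. Its difference of 1.08 ± 0.42 (SE) was 0.69 without HSU 2b and 0.01 without HSU 1b and 2b together. The carboxylesterase Ces1d was the fourth of them, at 0.19 ± 0.07 (SE).

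Of 11 other P450 and electron transfer genes tested, 2 had an unadjusted p below 0.05, both with a higher mean, as had 2.33% of all probe sets tested. Cyp2c23, an arachidonic acid epoxygenase, differed by 0.63 ± 0.20 (SE), and Cyp3a9, of the drug-oxidising 3A subfamily, by 0.35 ± 0.12 (SE). Both had groups that did not overlap with HSU_Sor higher, as had 2.01% of probe sets. In Cyp3a9 they all but touched, at 6.9305 (highest HSU) and 6.9314 (lowest HSU_Sor). Its unadjusted p in limma was 0.075 without HSU 1b and 0.074 without HSU 2b. Cyp2f4, a P450 of club cells, had the next smallest p in this list, 0.052 unadjusted, with a difference of -0.53 ± 0.22 (SE). Over 18 fits that p was below 0.05 in 4, and the mean was lower in HSU_Sor in every fit. Cyp2f4 had an unadjusted p in limma of 0.013 without HSU_Sor 1 and 0.0041 with the replicate numbers as a block. Beside it, the mean over 6 airway secretory markers was 9.62 to 10.38 in HSU and 8.81 to 9.42 in HSU_Sor. Where 3.67% of all probe sets tested had a lower mean at an unadjusted p below 0.05, 2 of 5 tested genes of this list did. These were Bpifa1, at 13.30, 12.22 and 9.61 in HSU and 9.78 to 6.00 in HSU_Sor, and Scgb3a1, with Bpifa1 making the larger difference of -3.68 against -0.99. Gabrp had a higher mean, by 0.26. The club cell protein gene Scgb1a1 was between 15.82 and 15.97 on all arrays, and the part of these cells in any difference was not tested.

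Among 17 conjugating enzymes tested, Gstk1, a glutathione transferase of mitochondria and peroxisomes, alone had an unadjusted p below 0.05. It was at 9.48, 9.32 and 9.30 in HSU and at 9.58, 9.74, 9.76 and 9.58 in HSU_Sor, a difference of 0.29 ± 0.08 (SE). Gstm5 differed by 0.43 ± 0.19 (SE) and Gstm1 by 0.11 ± 0.07 (SE), with overlapping groups. Of 7 transporters tested, 0 had an unadjusted p below 0.05. The brighter probe set of the efflux pump Abcb1a was at 6.53 and 6.29 on HSU_Sor 1 and 2 and between 3.38 and 4.03 on the other 5 arrays. Its difference was 1.27 ± 0.92 (SE), or 0.73 without HSU_Sor 1. The dimmer probe set of Abcb1a did not show this, at 4.07 on all HSU arrays and 4.10, 4.45, 3.89 and 4.07 in HSU_Sor. It differed by 0.06 ± 0.13 (SE). The carriers Slc15a2 and Slc22a4 differed by 0.51 ± 0.28 and 0.23 ± 0.17 (SE), values that were 0.14 without HSU 2b and 0.093 without HSU_Sor 3. Of 5 regulators tested, 0 had an unadjusted p below 0.05, with Nfe2l2, which encodes NRF2, at 0.06 ± 0.07, Maff at -0.16 ± 0.20 and the receptor repressor Ahrr at 0.09 ± 0.19 (SE). The genes of the receptors Ahr, Nr1i2 and Nr1i3 lay below the filter.

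**Figure D5:**
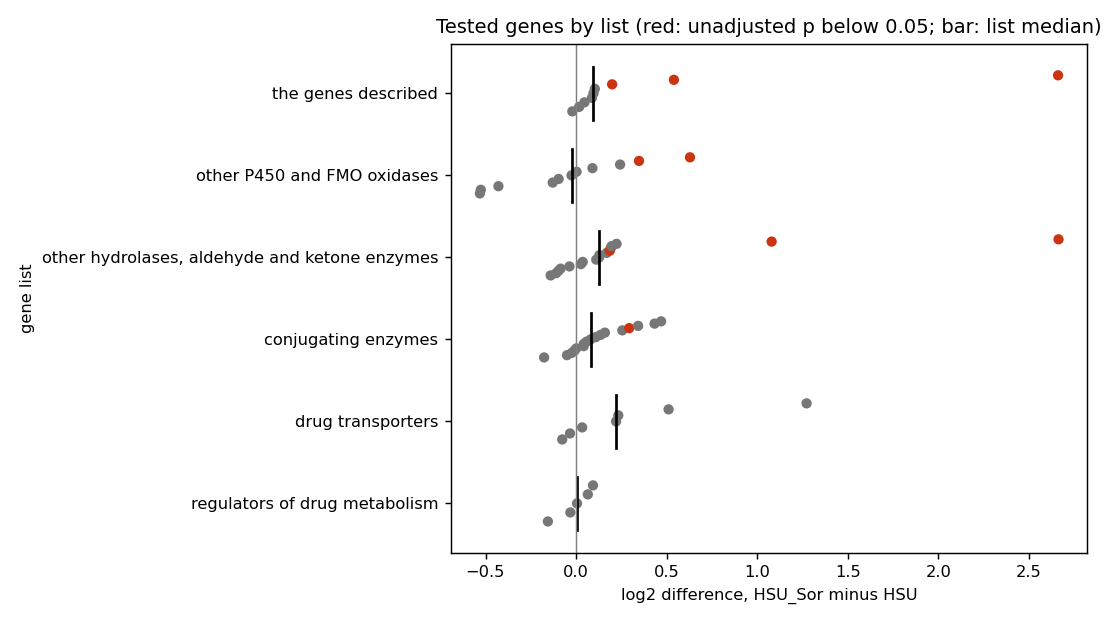
Log2 difference of HSU_Sor minus HSU for each tested gene of the set described (9 genes) and of the other drug handling lists (57 genes), 1 point per gene, in red where the unadjusted p was below 0.05, with the list median as a black bar. All 10 red points lie to the right of 0, and Cyp2e1 and Aox1 lie farthest right, at 2.66.

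The transcripts whose course over the 7 arrays was most like that of Cyp2s1 were those of Nfic, Kmt2e and Prkaca. Their Pearson correlations with it were 0.994, 0.981 and 0.972, the highest among 12190 probe sets with 1 symbol, and 60 of all 15520 other tested probe sets exceeded 0.9. They were selected for this likeness over 7 arrays that share the group difference, and no test was made.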

How the data were processed

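The values are log2 signals of an Affymetrix rat array, 1 per probe set, which the authors deposited already normalized. RMA and GCRMA are both named in the submitters' processing notes, without versions, and the sources used here do not say which of them made the values. The number of arrays, 3 and 4, limits the precision.

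The 57 control probe sets were left out. Of 31042 others, 20826 had 1 gene symbol in the platform annotation, 436 several and 9780 none, and 20758 matched the RefSeq gene table of GRCr8, with 0 symbols changed. HSU_Sor minus HSU was fitted with limma (version 3.58.1, R 4.3.3), two-sided and without covariates, on the 15521 probe sets with a mean above the median of means (3.64). Benjamini-Hochberg adjustment ran over all of them, at 0.05. Abcg2 came from the fit over all 31042. A gene with several probe sets was represented by the one with the highest mean. The series description names SAM with a minimum fold of 1.4, and the count at that fold was added. Simulated data for the 15521 probe sets had independent normal noise with the within-group SD of each probe set, and changes planted at random. There limma recovered 34.6% of 1.4-fold, 76.4% of 2-fold and 92.4% of 4-fold changes at an adjusted p below 0.05. Effects that probe sets of an array share were not simulated, so these shares do not give the recovery on the real arrays.

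The genes and lists were chosen with earlier results of these data known. Up to 3 genes per other list, those with the smallest p, were named by rule. Ces1d, Mrc1, Cyp1a1, Cyp1a2, Cyp1b1, Nqo1 and Aldh3a1 were named beyond it, after their values were seen, and markers where they bore on a gene of the set. Each array was taken as a separate rat, since the design text gives group sizes in rats. Alternatives were other filters, scalings and variance models, array weights, probe set means, a replicate block, and arrays left out.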

Additional observations from a re-analysis of the deposited data

Results flagged for a closer look

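Among the 4 HSU_Sor arrays, Aldh1a1 on array 2 lay apart from the other 3. It was at 12.999, the next array was at 12.88, and the gap was 0.998 of the group's range, above Dixon's 95% critical ratio for 4 values. The other 3 were nearly tied, at 12.8767, 12.8769 and 12.8769, and so close a tie makes this ratio large even for a small gap. The whole group ran from 12.88 to 12.999, and HSU 3b was higher still at 13.04. Of 28 probe sets checked in this way 1 stood out, where chance gives about 1 in 20.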

How the results depend on the processing

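Cyp2e1 and Cyp2s1 kept their direction and an unadjusted p below 0.05 in every fit that included them, with adjusted p from 0.374 to 0.91 and from 0.342 to 0.91. The count of genes of the set at that p went from 2 to 3 without single arrays, and was 1 with a filter at the 75th percentile, which Cyp2e1 and Cyp2s1 do not pass. At that p the filter gave 4 other drug handling genes in either direction, among them Cyp2f4 with a lower mean in HSU_Sor. It gave 6 probe sets past the adjusted threshold, 562 at an unadjusted p below 0.05 and 87 at the fold of 1.4. With the mean of probe sets per gene, which tests fewer features, the last 2 counts were 542 and 75. Without single arrays these 3 counts ran from 0 to 6, from 698 to 931 and from 105 to 143. The 6 calls came without HSU 3b. Arrays left out in pairs were chosen after seeing the data. Without HSU 1b and 2b there were 10 calls and 263 probe sets at the fold of 1.4, and without HSU_Sor 3 and 4 the latter count was 215. The cause of these moves was not tested.

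The median of the 9 genes ran from -0.022 to 0.18 without single arrays and was 0.22 without HSU_Sor 3 and 4. Without single arrays the other drug handling genes had 4 (without HSU 2b) to 9 genes at an unadjusted p below 0.05, in either direction. Their median was 0.042 to 0.11 without single arrays, and 0.0039 with no filter. Differences near 0 changed sign. Por turned to 0.0099 and Abcg2 to 0.0028 with quantile normalization, and Abcg2 to 0.0067 with median centring. Array weights turned the 3 Fmo2 probe sets to -0.17, -0.18 and -0.23. Without HSU 1b and 2b, Fmo1 was at -0.13, Fmo2 at -0.095 in 1 probe set, Aldh1a1 at -0.13, Por at 0.029 and Abcg2 at 0.013. Without HSU_Sor 3 and 4, Fmo2 was at -0.41, -0.50 and -0.49, Ephx1 at -0.018 and Ahrr at -0.081. Without single arrays Fmo1 ran from -0.074 to 0.20, Ephx1 from -0.022 to 0.24, Aldh1a1 from -0.030 to 0.090, Por from -0.11 to 0.093, Gstp1 from -0.099 to 0.17, Abcg2 from -0.020 to 0.0020, Maff from -0.31 to 0.083 and Ahrr from -0.068 to 0.19. The Fmo2 probe sets ran from -0.30 to 0.47, from -0.40 to 0.53 and from -0.36 to 0.80.

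Deviations of arrays with the same replicate number correlated at -0.06, 0.18 and 0.14, so the numbers were not taken to pair the rats. With the replicate block 0 probe sets passed, Cyp2e1 differed by 2.29 and Cyp2s1 by 0.61, and Fmo2 turned to -0.25, -0.30 and -0.34 and Ephx1 to -0.012. HSU_Sor 4 has no partner and drops out of that block. Dim probe sets such as Abcg2 lie at a floor where differences are compressed.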

Other observations

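Other genes that the aryl hydrocarbon receptor is known to induce are given beside Cyp2s1. Cyp1a1, the classic target of that receptor, was between 13.83 and 14.08 on the 7 arrays and differed by 0.09 ± 0.07 (SE). Cyp1b1 differed by 0.24 ± 0.14 (SE). The quinone reductase Nqo1 was between 13.004 and 13.52 and differed by 0.11 ± 0.13 (SE). Ahrr ran from 7.95 to 8.73 and differed by 0.09 ± 0.19 (SE). Each of these had a higher mean in HSU_Sor, with overlapping groups and an unadjusted p above 0.05 in limma. Cyp1a2 and Aldh3a1 lay below the filter. Cyp1a2 was near the floor, between 2.35 and 2.42, and differed by -0.01 ± 0.02 (SE). Aldh3a1 ran from 2.62 to 5.25 and differed by 0.93 ± 0.60 (SE). These genes were picked after their values were seen. No array without SU-5416 or at normal oxygen was analysed here, so these levels have no untreated comparison.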
